A study of Mus musculus with 4 samples.

Results

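*Grid1*, *Cbln1*, *Cbln3*, *Nlgn1* and *Negr1* were read out by their symbols, as 5 of the 53703 genes counted in RNA of single cells, captured in droplets (scRNA-seq), from the stroma of mouse long bones. Cells were taken from 2 Lats2iECKO and 2 control libraries of animals aged 12 weeks, and n = 2 libraries in each group throughout. In Lats2iECKO animals, a tamoxifen-inducible Cre recombinase under the endothelial *Cdh5* promoter (Cdh5(PAC)-CreERT2) removes loxP-flanked *Lats2*, a kinase of the Hippo pathway, from endothelial cells (ECs). Controls were Cre-negative littermates given the same tamoxifen course, and the mice, of both sexes, were kept on a C57/BL6 background. The cells came from the metaphysis of femur and tibia and had been depleted of lineage-positive, CD45+ and CD117+ cells, so that blood cells are under-represented, and the deletion is directed at ECs and not at the stromal cells read out here. The 5 genes had been chosen by their levels (CPM, counts per 1000000 counts of the same cells) in Lats2iECKO against control libraries in reticular, metaphyseal stromal, chondrocyte and mural cells, and their differences in these cells are therefore given as a description, with no test.

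The libraries held 69636600 to 85899079 unique molecular identifiers (UMIs), and 5749 to 7649 barcodes per library passed the minimum of 1000 UMIs and 800 genes, 27707 in all. Each barcode was placed in a gate by the marker list with the highest score, when that list led the next by at least 0.1. The erythroid list was treated apart: it took a barcode by the highest score alone, and no lead over it was required. Across the 4 libraries, the gates held 4901 reticular, 1231 metaphyseal stromal, 6838 chondrocyte, 1466 mural, 2923 endothelial, 1876 osteoblast and 768 fibroblast cells. All 10 reticular markers, among them *Lepr*, *Adipoq* and *Cxcl12*, and all 7 metaphyseal stromal markers, among them *Postn*, *Wif1* and *Kcnk2*, were detected in their gates in every library. The markers of the metaphyseal stromal gate themselves differed between genotypes, with *Hs3st5* at 139 and 125 CPM in Lats2iECKO and 560 and 559 CPM in controls, and *Aspn* at 396 and 347 against 85.3 and 84.4 CPM. In the chondrocyte gate, 1388 of 1987 and 1479 of 2097 mutant cells held a UMI of *Col10a1*. In controls, 485 of 1363 and 480 of 1391 did. The part of this shift in the chondrocyte values given below was not tested. *Lats2*, the targeted gene, stood at 93.5 and 96.0 CPM in Lats2iECKO ECs and at 132 and 122 CPM in control ECs (log2 fold change −0.35, standard error (SE) 0.0776, adjusted p = 0.001128 in edgeR's quasi-likelihood fit). The UMIs of these 3′ libraries were assigned to the whole annotated gene. The paper reports a strong reduction of endothelial *Lats2* transcript and protein in the mutants. Reticular cells made up 10.1% and 10.7% of mutant and 24.1% and 23.1% of control barcodes; levels are given as CPM of all UMIs in a gate, and do not tell a smaller number of a cell kind from less RNA in each of its cells. Labels do not say whether libraries came from single animals, so p-values can speak only to the spread between libraries, which the fits share across genes. An exact permutation test of 2 against 2 libraries cannot give a p under 0.333. Smaller p-values rest on that sharing and on the model of counts, not on the 2 libraries of a group alone. In ECs, mural cells and osteoblasts, p-values of fits without the filter on low counts rest almost wholly on the shared spread. They do not measure the spread of the single gene between its libraries.

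Cerebellins are secreted proteins of the C1q family that bridge synapses: they bind neurexins of the presynaptic membrane and delta-type glutamate receptors of the postsynaptic membrane, and this bridge is best known from the contacts of parallel fibers with Purkinje cells in the cerebellum. Delta receptors belong to the ionotropic glutamate receptors by sequence but act mainly as adhesion and signaling receptors. Neuroligins are another family of neurexin partners, and IgLON proteins are lipid-anchored adhesion molecules of the neuronal surface. In bone, *Lepr*+ reticular cells line sinusoids and provide *Cxcl12* and *Kitl* to hematopoietic cells, and they are known to send out long processes.

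*Grid1* encodes the delta receptor GluD1 and lies on chromosome 14 of GRCm39 from 34541769 to 35305336, on the plus strand, and only 0.82% of its 763568 bases are exonic. *Lats2* lies on the same chromosome, 22.62 Mb further on. *Cbln1*, the founding cerebellin, is a compact gene on chromosome 8 (88195033 to 88199261, minus strand), with 72.4% of its bases in exons. *Cbln3*, a cerebellin known to depend on *Cbln1* for its secretion, lies on chromosome 14 (56116370 to 56121849, minus strand). *Nlgn1*, encoding neuroligin 1, spans 906231 bases of chromosome 3 (25480379 to 26386609, minus strand). *Negr1*, an IgLON gene known from studies of body weight and neurite growth, lies on the same chromosome (156267431 to 157022097, plus strand). Reads in introns were counted along with exonic reads, and the 3 long genes consist almost wholly of intron.

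RefSeq promoter sequences (build GRCm38.p6) were at hand for 3 of the 5 genes, *Cbln3*, *Nlgn1* and *Negr1*; *Grid1* and *Cbln1* had no entry. The 250 bases upstream of the starts of *Nlgn1* and *Negr1*, the genes lower in the mutants among these, are shown 5′ to 3′ because they differ in composition, with each CG pair in capitals:
*Nlgn1*, first start, chr3:26331910-26332159, minus strand: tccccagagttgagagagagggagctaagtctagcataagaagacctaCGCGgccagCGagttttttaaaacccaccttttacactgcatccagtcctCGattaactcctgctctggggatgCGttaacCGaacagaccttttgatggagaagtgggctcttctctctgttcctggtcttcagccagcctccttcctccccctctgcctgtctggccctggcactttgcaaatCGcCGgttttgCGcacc
*Nlgn1*, second start, chr3:26153987-26154236, minus strand: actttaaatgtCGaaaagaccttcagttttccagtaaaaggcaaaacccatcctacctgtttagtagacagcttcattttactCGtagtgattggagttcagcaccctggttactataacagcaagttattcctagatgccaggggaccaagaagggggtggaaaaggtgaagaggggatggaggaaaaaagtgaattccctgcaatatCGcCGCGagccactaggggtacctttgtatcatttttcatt
*Negr1*, chr3:156561544-156561793, plus strand: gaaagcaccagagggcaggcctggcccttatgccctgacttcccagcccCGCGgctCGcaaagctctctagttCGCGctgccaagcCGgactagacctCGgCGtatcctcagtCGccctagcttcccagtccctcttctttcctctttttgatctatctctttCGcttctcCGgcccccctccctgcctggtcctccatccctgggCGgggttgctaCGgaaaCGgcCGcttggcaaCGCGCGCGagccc
The *Negr1* window held 19 CG pairs, a number reached by 19.7% of the 32851 promoter windows of the same length. The first and second *Nlgn1* windows held 9 and 5, reached by 40.3% and 55.6%, beside a median of 6 over all windows. None of these 3 windows contained GGAATG (bound by TEAD factors, which act with YAP1 and TAZ), TGTGGT (RUNX factors) or CCCNNGGG (EBF factors) on either strand. These letters occurred in 12.64%, 14.05% and 11.82% of all windows. The window of *Cbln3*, whose level was too low for a comparison, held 1 match to the TEAD letters, 193 bases before the start.

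**Figure D1:**
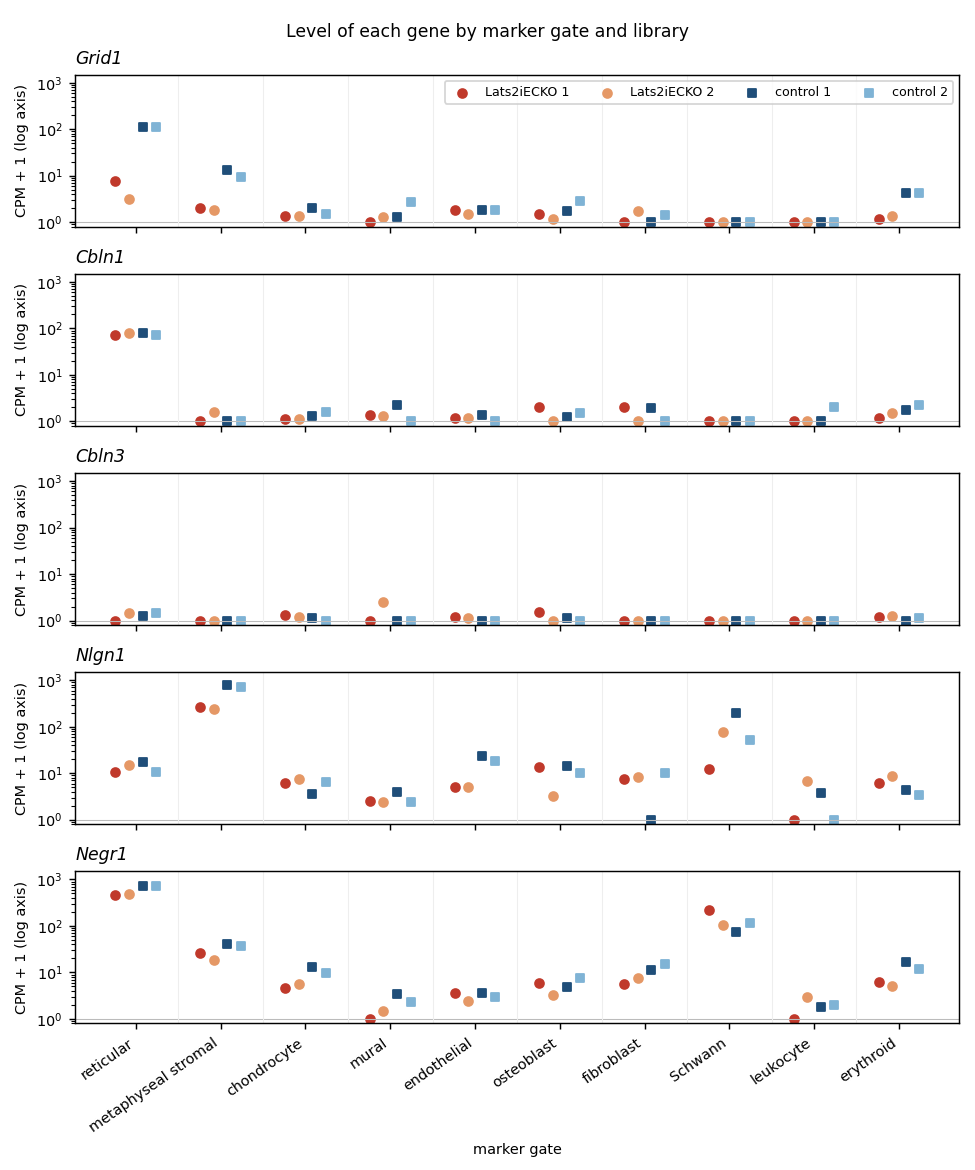
Level of each gene (CPM plus 1, log axis) in the sums of 10 marker gates, with circles for the Lats2iECKO libraries and squares for the controls. *Grid1*, *Cbln1* and *Negr1* stand highest in the reticular gate and *Nlgn1* in the metaphyseal stromal gate, *Cbln1* is level between genotypes at 69.7 to 78.9 CPM, and *Grid1* drops from 109 and 112 CPM in controls to 6.57 and 2.08 CPM in Lats2iECKO.

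Of the receptor and its ligands, *Grid1* was nearly lost from reticular cells of the mutants while *Cbln1* was level. *Grid1* stood at 6.57 and 2.08 CPM in the 2 Lats2iECKO libraries and at 109 and 112 CPM in the 2 controls (4.33 ± 3.17 against 111 ± 2.15 CPM, SD, n = 2). Both mutant libraries lay far below both controls, and the ratio of the means was 25.6. The log2 fold change of the edgeR fit was −4.68, and it was −5.71 without the first and −3.99 without the second mutant library. These libraries held only 25 and 9.33 *Grid1* UMIs in this gate. In this gate, 3 of the 5 genes (*Grid1*, *Cbln1* and *Negr1*) passed the filter on low counts, and *Grid1* alone had libraries that did not overlap with means at least 2-fold lower, as 0.624% of all 5132 genes tested did. As the choice of the genes used this contrast, nothing is read from that count. Summed markers of osteoblasts in the reticular gate stood at 2227 and 2191 CPM in mutants and 3641 and 3358 CPM in controls, those of chondrocytes at 863 and 728 against 370.5 and 429.8 CPM, those of erythroid cells at 975 and 1887 against 483 and 597 CPM, and those of leukocytes at 42.9 and 36.4 against 131 and 223 CPM. The reticular markers themselves summed to 32621 and 33559 CPM in mutants and 38581 and 38716 CPM in controls. Mutant reticular cells had a median mitochondrial share of 4.06% and 4.13%, against 3.07% and 3.19% for control cells. The part of these in the levels of *Grid1* and *Negr1* was not tested. Neuron markers summed to 1.7 to 2.7 CPM.

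*Grid1* was detected in a minority of control reticular cells and at several UMIs in many of them. In controls, 397 of 1834 and 378 of 1767 reticular cells held a *Grid1* UMI, that is 21.6% (exact Clopper-Pearson 95% interval 19.8 to 23.6%) and 21.4% (19.5 to 23.4%). In Lats2iECKO libraries, 15 of 580 and 8 of 720 did, 2.59% (1.46 to 4.23%) and 1.11% (0.481 to 2.18%); these intervals cover counting error only. ECs, as cells without *Grid1* enrichment, gave 0.424 to 0.727%. After thinning every cell of at least 3000 UMIs to that number, the shares were 16.1% and 15.2% in controls and 1.77% and 0.664% in mutants. Positive control cells held 3.23 and 3.41 *Grid1* UMIs on average and up to 18, and 66 cells in each control held 6 or more, whereas no reticular cell of the mutants held more than 4.

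**Figure D2:**
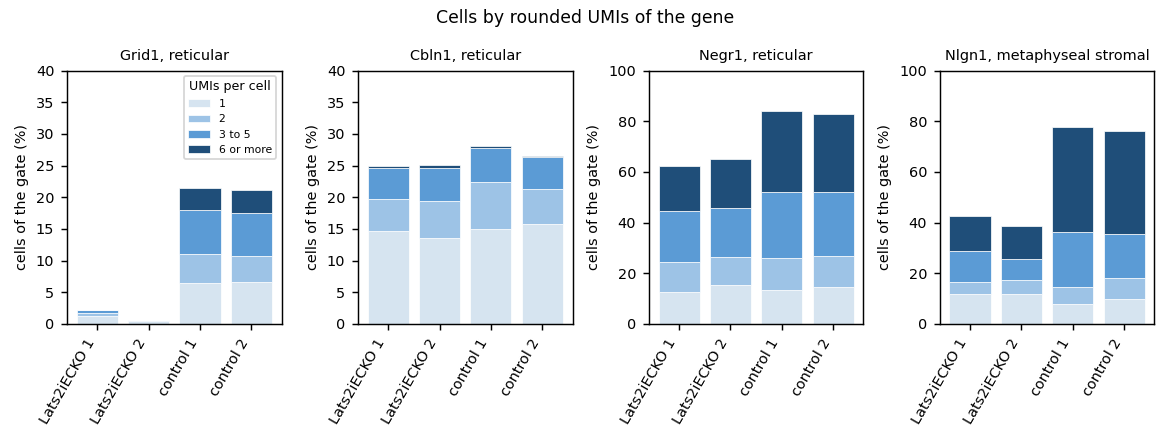
Share of the cells of a gate (%) with 1, 2, 3 to 5, or 6 or more UMIs of the gene, rounded to whole UMIs, in each library; the first 2 panels end at 40% and the others at 100%. *Grid1*-positive reticular cells are rare in Lats2iECKO at every UMI number, *Cbln1* shows like bars in all 4 libraries, and *Nlgn1* cells with 6 or more UMIs fall from 41.5% and 40.9% of metaphyseal stromal cells in controls to 13.9% and 12.9%.

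*Grid1* was also present at lower levels in metaphyseal stromal cells of controls. It stood there at 1.01 and 0.867 CPM in Lats2iECKO and at 12.3 and 8.57 CPM in controls, and the mutants lay below both controls. In this gate, 43.1% of all genes tested had libraries that did not overlap with mutants lower. In control cells with a UMI of *Mmp9*, a gelatinase gene, *Grid1* was at 47.3 and 19.6 CPM, from 22 and 12 UMIs, and without it at 6.91 and 6.41 CPM. With *Mmp13*, *Grid1* was at 15.95 and 10.8 CPM, and without it at 3.77 and 2.88 CPM. The order was opposite for *Hs3st5*, at 8.06 and 7.41 CPM with and 20.9 and 11.1 CPM without. For *Kcnk2* the controls differed in order, at 9.48 and 8.75 CPM with and 27.2 and 7.53 CPM without. In chondrocytes, *Grid1* was at 0.328 and 0.374 CPM in mutants and at 1.01 and 0.466 CPM in controls, close to the 0.790 and 0.661 CPM that free RNA would give in the controls. Mural, endothelial, osteoblast and fibroblast cells held at most 1.87 CPM, Schwann and leukocyte gates none, and the erythroid gate 0.179 and 0.387 CPM in mutants and 3.24 and 3.31 CPM in controls. Of all *Grid1* UMIs in control barcodes, 90.9% and 89.7% fell in the reticular gate, against 55.0% and 25.5% of the few that remained in the mutants. Counts that were not whole, which arise where a read could belong to several genes, made up 18.4% and 34.1% of the *Grid1* entries of mutants and 4.03% and 3.74% of those of controls. In the annotation used for gene positions, which is not the one used for counting, 8 genes overlap *Grid1*, 4 of them on its strand.

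*Cbln1* was found almost wholly in reticular cells. Its level there was 69.7 and 77.7 CPM in Lats2iECKO and 78.9 and 70.0 CPM in controls (73.7 ± 5.68 against 74.4 ± 6.35 CPM, SD, n = 2), so that the libraries of both groups overlapped. The log2 ratios between single mutant and control libraries ran from −0.18 to 0.15. Between 94.98 and 96.26% of all its UMIs in a library came from reticular cells, and no other gate exceeded 1.26 CPM. *Cbln1* was detected in 145 of 580 and 181 of 720 mutant and in 515 of 1834 and 469 of 1767 control reticular cells (17.7%, 16.8%, 18.8% and 17.3% after thinning), beside 0.143 to 0.503% of chondrocytes.

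*Grid1* was detected in like shares of control reticular cells with and without *Cbln1*. In thinned cells of control 1, *Grid1* was detected in 46 of 310 *Cbln1*-positive cells (14.8%) and in 219 of 1340 *Cbln1*-negative cells (16.3%). In control 2 it was detected in 51 of 282 (18.1%) and 197 of 1349 (14.6%), the opposite order. Summed over cells, *Grid1* stood at 119 and 113 CPM in control cells with a *Cbln1* UMI and at 105 and 112 CPM in those without, while the mutants held 11.9 and 2.74 CPM with and 4.65 and 1.82 CPM without. Mutant levels were below those of both controls in *Cbln1*-positive and in *Cbln1*-negative reticular cells.

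Control reticular cells with and without *Grid1* were otherwise compared over 1783 genes of at least 100 CPM, and the genes with the largest ratios in both controls are named after their values were seen. *Prg4*, encoding the lubricating proteoglycan 4, stood at 390 and 1329 CPM in cells with a *Grid1* UMI and at 137 and 403 CPM in cells without. *Fhit*, a gene of nucleotide metabolism, was lower in cells with *Grid1*, at 106 and 104 against 202 and 210 CPM. *Prg4* was also higher in cells with *Cbln1* than without it (361 and 1535 against 125 and 259 CPM). The 2 controls differed from each other in *Prg4* within each class.

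*Grid1* and *Lats2* share a chromosome, and the genes around *Grid1* were therefore listed. Of 22 genes tested in reticular cells within 5000000 bases of *Grid1*, 1 was called, *Vstm4* (log2 fold change 1.18), and their median log2 fold change was 0.09. Over chromosome 14, leaving out *Grid1*, 2 of 182 genes were called higher and 4 lower. Of all 5132 genes tested in this gate, 66 (1.29%) were called higher and 27 (0.526%) lower. The share called lower was thus larger on this chromosome than over all genes, on few genes. The part of linkage to *Lats2* was not tested.

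*Cbln3*, the second cerebellin read out, was at the limit of detection. All kept barcodes together held 13 and 18 *Cbln3* UMIs in the 2 Lats2iECKO libraries and 11 and 6 in the controls. Its highest level in any gate was 1.55 CPM, in mural cells of 1 mutant library. No reticular cell of 580 in Lats2iECKO library 1 held a UMI, which allows a share of cells with a UMI of up to 0.517%, and the other 3 libraries had 0.164 to 0.278% of reticular cells positive. No fold change is given for *Cbln3*, and a difference was not detectable at this depth.

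*Nlgn1* was the gene of the metaphyseal stroma. It stood at 271 and 236 CPM in Lats2iECKO and at 799 and 732 CPM in controls (254 ± 24.2 against 765 ± 47.4 CPM, SD, n = 2). Both mutant libraries lay below both controls, and the log2 fold change was −1.52. Of the 5 genes, *Nlgn1* alone passed the filter in this gate, and 2.79% of the 5807 genes tested there also had libraries that did not overlap with means at least 2-fold lower. *Nlgn1* was detected in 42.8% and 39.2% of mutant and 78.2% and 76.4% of control cells, and in 32.9%, 29.9%, 69.1% and 66.2% after thinning. Positive cells held fewer UMIs too, 5.05 and 5.38 on average in mutants against 8.59 and 8.25 in controls.

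Within the metaphyseal stromal gate, *Nlgn1* was higher in cells with a UMI of *Hs3st5*, a heparan sulfate sulfotransferase gene, or of *Kcnk2*, a potassium channel gene, and the genotypes differed on both sides of each split. Cells with *Hs3st5* numbered 42 of 187 and 52 of 194 in Lats2iECKO and 269 of 417 and 293 of 433 in controls. In these cells *Nlgn1* stood at 412 and 453 CPM in mutants and 926 and 863 CPM in controls, and in cells without *Hs3st5* at 223 and 164 against 538 and 444 CPM. The mutants lay below the controls in either class, as they did with *Kcnk2* (365 and 294 against 851 and 791 CPM) and without it (123 and 151 against 517 and 378 CPM). Cells with *Mmp13*, a collagenase gene, were at 271 and 187 CPM in mutants and 795 and 719 CPM in controls, and cells without it at 269 and 477 against 807 and 765 CPM.

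**Figure D3:**
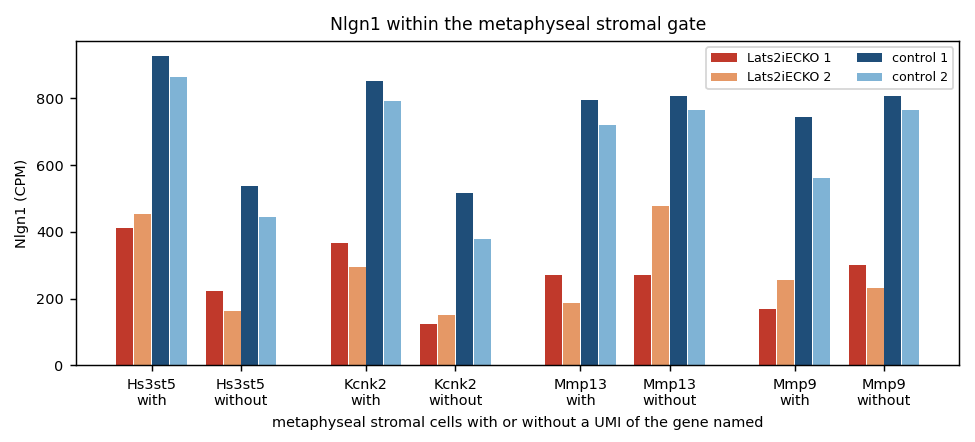
*Nlgn1* level (CPM, linear axis from 0) in metaphyseal stromal cells with or without a UMI of *Hs3st5*, *Kcnk2*, *Mmp13* or *Mmp9*, 1 bar for each library. The Lats2iECKO bars are below both control bars in all 8 classes, from 123 to 477 CPM against 378 to 926 CPM.

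Control metaphyseal cells without a *Nlgn1* UMI had higher levels of *Cytl1*, encoding a secreted cytokine-like protein, and *Comp* than cells with it. *Cytl1* stood at 45.3 and 69.8 CPM in *Nlgn1*-positive and at 679 and 586 CPM in *Nlgn1*-negative cells of the 2 controls, and *Comp*, encoding a cartilage matrix protein, at 166 and 306 against 870 and 1180 CPM. *Nlgn1*-negative cells were shallower (median 5681 and 5637 UMIs against 8136.5 and 8485), and these genes were named after their values were seen. The summed markers of chondrocytes in this gate moved with genotype, at 727.5 and 1382 CPM in mutants and 417.5 and 416.7 CPM in controls, and so did those of fibroblasts, at 193 and 315 against 51.1 and 114 CPM, of erythroid cells, at 582 and 688 against 225 and 266 CPM, and of reticular cells, at 1997 and 1698 against 2612 and 3191 CPM. When cells were assigned by their whole profile instead, the log2 fold change of *Nlgn1* was −1.85; the part of other cells in the result was not tested.

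In reticular cells, chondrocytes and mural cells, *Nlgn1* was low. Reticular cells held 9.69 and 13.7 CPM in Lats2iECKO and 16.8 and 9.53 CPM in controls, and chondrocytes 5.08 and 6.51 against 2.65 and 5.53 CPM. The groups overlapped in both. Mural cells held 1.56 and 1.35 against 3.01 and 1.38 CPM, again with overlap. The metaphyseal stromal gate held 47.1% and 42.7% of all *Nlgn1* UMIs in mutant barcodes and 71.4% and 67.5% in control barcodes. Barcodes placed in no gate held 21.4% and 18.65% in mutants and 12.49% and 20.07% in controls. The small Schwann gate (24 to 41 cells per library) ranged from 11.2 to 199 CPM, with the lowest value in a mutant and the highest in a control library.

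In ECs, the cells at which the deletion is directed, *Nlgn1* was a tested comparison, as the rule for choosing the genes did not use this gate. The genes were still chosen with earlier results of these data known, and no doublet caller was run. It stood at 3.97 and 4.08 CPM in Lats2iECKO and at 23.0 and 17.5 CPM in controls (4.03 ± 0.081 against 20.2 ± 3.91 CPM, SD, n = 2). The gene did not reach the filter on low counts, which asks for detection in 20% of the cells of either genotype, and in the edgeR fit without that filter its log2 fold change was −2.25 (SE 0.224, adjusted p = 5.613e-22). In that fit, 2.29% of 27876 genes were called lower in ECs. The p of *Nlgn1* rests almost wholly on the spread shared across genes, not on that of *Nlgn1* between these libraries. The endothelial markers themselves summed to 7048.5 and 6961.0 CPM in mutant and 8935.6 and 8877.6 CPM in control ECs. Reticular markers summed to 1635.7 and 1686.0 against 1397.0 and 1413.1 CPM. Metaphyseal stromal markers summed to 88.6 and 97.4 CPM in mutant and 58.5 and 93.8 CPM in control ECs. Osteoblast markers summed to 211 and 203 CPM in mutant and 496 and 837 CPM in control ECs, and neuron markers to 14.6 and 9.9 against 20.5 and 21.0 CPM. Erythroid markers summed to 573 and 646 against 230 and 249 CPM, and the median mitochondrial share of ECs was 5.68% and 5.90% against 4.70% and 4.63%. The gate pools all kinds of ECs, and the paper reports that capillaries of the metaphysis are very sparse in the mutants. The part of a shift among kinds of ECs, and of these marker differences, in the result was not tested. In ECs without a UMI of any metaphyseal stromal marker, *Nlgn1* was at 5.08 and 2.98 CPM in mutants and 16.9 and 17.6 CPM in controls, and in ECs with such a UMI at 2.12 and 5.88 against 43.3 and 17.3 CPM. A few cells held many UMIs: without the 1 mutant and 9 control ECs of 6 or more, the levels were 3.97 and 3.19 against 10.3 and 12.5 CPM. Free RNA would give 0.157 to 1.24 CPM.

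In ECs, osteoblasts and fibroblasts, none of the 5 genes passed the filter on low counts, and all fits of these genes there are without it. Over these 3 gates, 14 fits of a gene without the filter gave 1 call with edgeR, that of *Nlgn1* in ECs, and 4 had an unadjusted p under 0.05. Among genes past the filter, 3683 of 5694 in ECs, 1313 of 5878 in osteoblasts and 1106 of 5782 in fibroblasts had one. The share without the filter was not counted, so nothing is read from the 4. DESeq2 made the same call and gave 1 unadjusted p under 0.05 and no adjusted p for 9 of the fits. In osteoblasts, where 0.372% of genes were called lower without the filter, *Nlgn1* stood at 12.6 and 2.23 CPM in Lats2iECKO and 13.6 and 9.12 CPM in controls (log2 fold change −0.85, SE 0.262, adjusted p = 0.03126 in edgeR's test, under 2-fold). This difference rested on the second mutant library, since without it the log2 fold change was 0.05, and DESeq2 gave an adjusted p of 0.9989. It passed 2-fold in edgeR's test without the first mutant library (−2.41, adjusted p = 6.029e-06), with a wider lead of the gate (−1.26, adjusted p = 0.005712) and with whole-profile assignment (−1.71, adjusted p = 1.444e-07), and without the first control library it was −0.49 (adjusted p = 0.9252). The osteoblast gate held 146 and 189 mutant cells, at medians of 9559 and 9366 UMIs. In controls it held 747 and 794 cells, at 15498 and 16444 UMIs. Median mitochondrial shares were 5.79% and 5.27% in mutants and 4.08% and 4.09% in controls. The part of these in the osteoblast values was not tested. In fibroblasts, where 0.04% were called lower, *Negr1* was at 4.66 and 6.64 against 10.2 and 14.5 CPM (log2 fold change −1.06, SE 0.352, adjusted p = 0.4109 in the edgeR fit).

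*Negr1* was the adhesion gene of the reticular cells. It stood at 460 and 487 CPM in Lats2iECKO and at 719 and 706 CPM in controls (474 ± 19.1 against 712 ± 9.40 CPM, SD, n = 2), with both mutants below both controls and a log2 fold change of −0.52, under 2-fold. Libraries that did not overlap, with the mutants lower, were found for 48.0% of all genes tested in this gate. *Negr1* was detected in 62.4% and 65.3% of mutant and 84.2% and 82.7% of control cells, and in 53.8%, 58.0%, 73.0% and 71.4% after thinning. Its reticular share of all *Negr1* UMIs lay between 86.8 and 91.3% in the 4 libraries. Cells with 6 or more UMIs made up 17.8% and 19.4% of mutant and 32.2% and 30.8% of control reticular cells.

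*Negr1* was below the controls in mutant reticular cells with and without *Cbln1*. Cells with a *Cbln1* UMI held 615 and 597 CPM of *Negr1* in mutants and 781 and 788 CPM in controls, and cells without it 405 and 443 against 693 and 674 CPM. In thinned cells, *Negr1* was detected in 76.7% and 69.3% of *Cbln1*-positive and 48.9% and 55.7% of *Cbln1*-negative mutant cells. The same shares in controls were 71.0% and 74.8% against 73.4% and 70.7%. The difference between these cell classes was not tested.

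*Negr1* also stood below controls in metaphyseal stromal cells (25.5 and 17.6 against 39.7 and 35.1 CPM) and in chondrocytes (3.55 and 4.51 against 11.9 and 8.82 CPM), gates in which the libraries did not overlap with mutants lower for 43.1% and 54.1% of all genes tested. Free RNA would give 2.08 and 2.81 CPM and 3.99 and 3.89 CPM in the controls of these gates. In mural cells it was at 0 and 0.466 CPM against 2.41 and 1.33 CPM. Schwann cells, which are known to express IgLON genes, held 218 and 102 CPM in Lats2iECKO and 72.2 and 113 CPM in controls, and the groups overlapped.

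*Fos* and *Jun*, immediate early genes known to respond to tissue dissociation, differed between genotypes in the same gates. *Fos* stood at 1168 and 1016 CPM in Lats2iECKO and at 418 and 401 CPM in control reticular cells, and at 1060 and 799 against 294 and 328 CPM in metaphyseal stromal cells. *Jun* stood at 861 and 607 against 404 and 365 CPM in reticular and at 480 and 394 against 209 and 169 CPM in metaphyseal stromal cells. In ECs, *Fos* was at 962 and 1014 against 481 and 502 CPM, and *Jun* at 906 and 947 against 726 and 753 CPM. *Hspa1a*, a stress gene, was higher in mutant reticular cells (160 and 137 against 94.2 and 93.3 CPM) and metaphyseal stromal cells (268 and 218 against 119 and 92.8 CPM). In ECs it was lower in mutants, at 362 and 321 against 526 and 477 CPM. *Malat1*, a nuclear RNA, was at 25134 and 25361 CPM in mutant and 24262 and 23334 CPM in control reticular cells. The part of dissociation in the values of *Grid1*, *Nlgn1* and *Negr1* was not tested. Free RNA, estimated from markers of other cell types, made up 8.44 to 13.6% of the reticular sums and would give at most 1.498 CPM of *Grid1* and 7.57 CPM of *Negr1* there.

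The pattern of each gene over 40 sums (10 gates in 4 libraries) was set beside those of 16171 genes of at least 10 CPM, as Pearson correlations of log2(CPM + 1); the sums share libraries and gates, and no p is given. Closest to *Grid1* were *Gm15958* (r = 0.89), *Mbl1*, a mannose-binding lectin gene (0.88), and *F830016B08Rik* (0.86). Closest to *Cbln1* were *Gpr50*, an orphan receptor gene (0.97), *Slco1a4*, an organic anion transporter gene (0.97), and *Gm42946* (0.97), which lies within *Negr1* on its strand. Closest to *Nlgn1* were *Wdr72* (0.77), *Arhgef26* (0.76) and *Limch1* (0.75), and closest to *Negr1* were *Sfrp1*, a secreted Wnt inhibitor gene (0.91), *Chl1*, a neural adhesion gene (0.91), and *Mme*, encoding neprilysin (0.88). *Grid1* correlated with *Cbln1* at 0.70 and with *Negr1* at 0.61, and *Nlgn1* with *Cbln1* at −0.04.

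**Figure D4:**
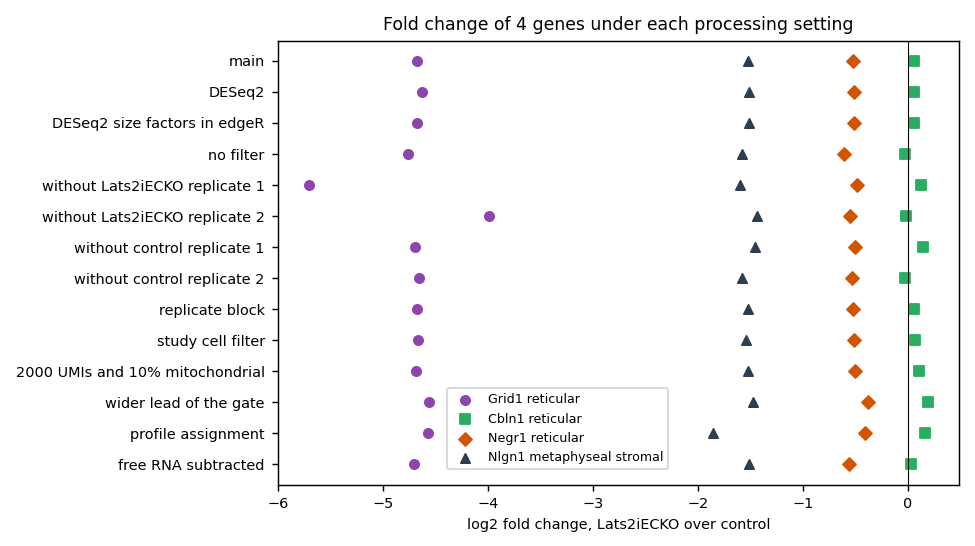
Log2 fold change of Lats2iECKO over control for 4 genes (x axis) under the main processing and 13 alternatives (rows). *Grid1* runs from −5.71 to −3.99, *Nlgn1* from −1.85 to −1.44, *Negr1* from −0.61 to −0.38 and *Cbln1* from −0.03 to 0.20.

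The genes with which these proteins are known to work were followed in a list of 60 partners. Of these, 7 to 10 passed the filter on low counts per gate, and the median log2 fold change of those tested lay between −0.45 in mural cells and −0.03 in osteoblasts, beside medians of −0.01 to 0.01 over all genes tested. Only 1 partner was called, *Ntm*, an IgLON gene like *Negr1*, in mural cells, where it fell from 159 and 136 CPM in controls to 47.5 and 60.1 CPM in Lats2iECKO (log2 fold change −1.42, SE 0.133, adjusted p = 5.202e-08 in edgeR's test). That was 1 of 9 partners tested there, and 2.92% of all 4723 genes tested in mural cells were called lower. Over all genes tested, 4.59% were called higher there. In edgeR's test without the filter, the adjusted p of *Ntm* was 3.29e-23 on the same libraries. The markers of the mural gate differed with genotype as well. The smooth muscle genes *Myh11* and *Acta2* stood at 1527 and 1633 CPM and at 5961 and 5675 CPM in mutant mural cells, against 3518 and 3958 CPM and 9972 and 11244 CPM in controls. *Kcnj8*, another marker of this gate, stood at 114 and 126 against 42.2 and 48.4 CPM. The 8 mural markers summed to 17403 and 17724 CPM in Lats2iECKO and 27431 and 29876 CPM in controls, and all 8 were detected. Of the other lists in this gate, the 10 reticular markers summed to 1825 and 2079 against 1321 and 1219 CPM, the 6 erythroid ones to 617 and 756 against 226 and 248 CPM, and the 9 osteoblast ones to 166 and 154 against 499 and 529 CPM. The 10 chondrocyte markers overlapped, at 491 and 554 against 294 and 537 CPM, although *Col10a1* among them stood at 218 and 284 against 38.6 and 32.5 CPM, and so did the 7 metaphyseal stromal markers, at 762 and 812 against 811 and 780 CPM. The part of these shifts in the *Ntm* difference was not tested. In reticular cells 0 of 10 were called (1.29% of all genes were called higher and 0.526% lower), and 7 had an unadjusted p under 0.05, as did 2793 of all 5132 genes tested there. The edgeR counts were also 0 in metaphyseal stromal cells, chondrocytes, ECs, osteoblasts and fibroblasts, with 7, 6, 6, 3 and 2 partners at an unadjusted p under 0.05. Of all genes tested in these 5 gates, 2639 of 5807, 4621 of 6797, 3683 of 5694, 1313 of 5878 and 1106 of 5782 had one. DESeq2 called the same numbers in each gate, 1 in mural cells and 0 elsewhere. All genes tested were called higher and lower at 2.6% and 2.24% in metaphyseal stromal cells, 2.53% and 1.35% in chondrocytes, 2.39% and 2.05% in ECs, 0.851% and 0.119% in osteoblasts and 0.432% and 0.173% in fibroblasts.

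None of the 6 other cerebellin and C1q-like ligand genes, of the 3 neurexin genes or of the 16 AMPA, kainate and NMDA receptor subunit genes passed the filter in any of the 7 gates. Among the alternative receptors of these ligands, *Neo1*, encoding neogenin, was expressed in all stromal gates and differed by less than 2-fold. It was higher in mutant reticular cells (log2 fold change 0.33, SE 0.0638, adjusted p = 0.001938 in edgeR) and lower in chondrocytes (−0.61, SE 0.0467, adjusted p = 1.948e-07 in edgeR) and mural cells (−0.67, SE 0.102, adjusted p = 2.285e-05 in edgeR). The difference between these gates was not tested. The 2 genes listed as partners of *Negr1*, *Fgfr2*, a fibroblast growth factor receptor gene, and *Adam10*, a sheddase gene, were past the filter everywhere and under 2-fold; in reticular cells *Fgfr2* stood at 1105 CPM on average in mutants and 1269 CPM in controls. Among the postsynaptic scaffold genes, *Magi2*, under 2-fold, was lower in reticular and metaphyseal stromal cells, at 324 against 553 CPM on average in reticular cells (log2 fold change −0.70, SE 0.0620, adjusted p = 9.077e-06 in edgeR) and at 314 against 626 CPM in metaphyseal stromal cells (−0.92, SE 0.0936, adjusted p = 5.563e-06 in edgeR), and in the latter it passed 2-fold with a wider lead of the gate (−1.12) and with whole-profile assignment (−1.23). In ECs, where it lay below the filter, *Magi2* was higher in mutants (0.82, adjusted p = 7.861e-07 in edgeR without the filter). *Dlg1*, another scaffold gene, was lower in these gates too (log2 fold change −0.30 and −0.36, adjusted p = 0.005445 and 0.01275 in edgeR). Without the filter the adjusted p in reticular cells was 0.09285 for *Neo1* and 0.0681 for *Dlg1*.

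Further receptor and adhesion genes lay below the filter and were called in the fit without it. In that fit, 2 partners were called lower in reticular cells, 3 higher and 3 lower in metaphyseal stromal cells, 1 higher and 5 lower in chondrocytes, 2 higher and 1 lower in mural cells, 3 higher and 2 lower in ECs, 2 lower in osteoblasts and 0 in fibroblasts. That fit called higher and lower 0.839% and 0.467% of all genes in reticular, 2.53% and 1.87% in metaphyseal stromal, 4.14% and 2.06% in chondrocyte, 3.76% and 1.87% in mural, 3.28% and 2.29% in endothelial, 1.44% and 0.372% in osteoblast and 0.0934% and 0.04% in fibroblast cells. *Grik2*, a kainate receptor subunit gene, was at 13.3 and 7.06 CPM in mutant and 85.7 and 70.4 CPM in control ECs (−2.90, adjusted p = 8.061e-103 in edgeR), and it was also called past the filter with a wider lead and with stricter limits on cells (−2.86 and −2.91). It reached the filter there through the controls, and both settings use parts of the same cells, so these calls add no separate support. *Dcc*, a netrin receptor gene, was lower in metaphyseal stromal cells (1.34 and 1.73 against 18.6 and 16.1 CPM) and in osteoblasts (1.51 and 2.29 against 28.7 and 25.9 CPM). Mutant osteoblasts were fewer and shallower, and the part of this in the osteoblast values here was not tested. *Ntm* was also called lower in reticular and metaphyseal stromal cells, at 4.03 and 2.20 against 11.2 and 12.8 CPM and at 4.69 and 7.23 against 30.4 and 31.4 CPM. *Nxph4*, a neurexin-binding neurexophilin gene, was higher in the chondrocyte gate, at 19.3 and 19.5 CPM against 5.55 and 6.91 CPM in controls. More mutant chondrocytes held *Col10a1*, and the part of this in the chondrocyte values here was not tested. *Grik2* was lower in osteoblasts too, at 2.02 and 3.44 against 15.4 and 16.4 CPM, and *Lsamp*, an IgLON gene, was lower in ECs, at 6.81 and 4.96 against 23.1 and 21.7 CPM. *Gria3* was the other partner called lower in reticular cells (log2 fold change −1.38), and *Grin3a*, an NMDA receptor subunit gene, the other in metaphyseal stromal cells, at 6.03 and 1.73 against 13.7 and 16.6 CPM. Among those called lower in chondrocytes were *Gria4* (−2.49), *Grin2a* (−2.43), *Shank3* (−1.72), and *Lrrtm3* at 0.219 and 0.237 against 0.661 and 0.735 CPM, all under 6 CPM in every library. The other partners called higher were *Gria3*, *Gria4* and *Mdga1* in metaphyseal stromal cells, *Grin2b* and *Nrxn2* in mural cells and *Gria3*, *Nxph1* and *Shank2* in ECs. In metaphyseal stromal cells *Gria4* rested on 8.33 UMIs in mutants and 0.5 in controls, against 28.3 and 118.5 in chondrocytes, where it was lower, and the difference between these gates was not tested. In ECs *Nxph1* rested on 7.83 and 0.33. *Shank2* stood at 0.198 and 3.85 against 0.669 and 0.522 CPM, and without the second mutant library its log2 fold change was −1.44 and it was no longer called.

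**Figure D5:**
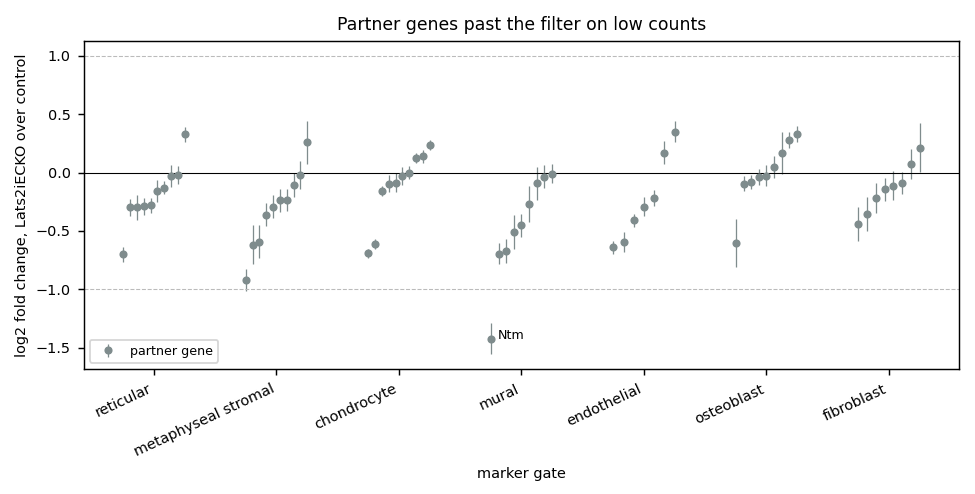
Log2 fold change of Lats2iECKO over control with its SE (bars) for each partner gene past the filter on low counts, by gate, with dashed lines at 2-fold. *Ntm* in mural cells, at −1.42, is the 1 partner beyond 2-fold.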

How the data were processed

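Droplet-based scRNA-seq (10x Chromium) libraries of 2 Lats2iECKO and 2 control samples were analysed. Reads had been trimmed with cutadapt (3.5) and counted by the authors with STARsolo (2.7.10a) on GRCm39 with the GENCODE M26 annotation, with intronic reads included, strand used and reads of several genes shared out by an expectation maximization step. The deposited values are therefore expected counts of UMIs per gene and barcode, not all of them whole, and hold all barcodes. Gene positions and overlaps were taken from a GRCm39 annotation of a later release than the one used for counting.

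Barcodes with at least 1000 UMIs and 800 genes were kept, 27707 in all; the stricter limits of the study (15% mitochondrial, 5% hemoglobin counts, complexity 0.8) would leave 5119, 5887, 6813 and 6780 per library. Each barcode was scored for 12 marker lists, none holding any of the 5 genes or a partner gene. It was gated by the leading list at a score of at least 0.2 and a lead of at least 0.1 over the next list, leaving out the erythroid list. Barcodes whose erythroid score was the highest, at 0.2 or more, went to the erythroid gate without a required lead. The thresholds were chosen after the gate sizes were seen. Gates are ranges of a score, not types: 293 cells near the reticular and 465 near the metaphyseal stromal limit had leads of 0.05 to 0.15, and 95.35% and 91.96% of gated cells had the same label by whole profile. No doublet caller was run, and the required lead was the only step that set aside cells with markers of several lists other than the erythroid. Cells of a gate could hold an erythroid score close to that of their own list. Pairs of libraries shared 7 to 22 kept barcodes.

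Counts were summed per gate and library. Levels are these sums scaled to CPM, and the unscaled sums, rounded to whole numbers, were fitted with edgeR (4.0.16) quasi-likelihood tests and trimmed mean scaling, for genes passing filterByExpr and detected in 20% of the cells of either genotype. Calls required a Benjamini-Hochberg adjusted p of at most 0.05 over all genes tested in the gate together with a 2-fold difference (log2 fold change of 1). The edgeR procedure was run on simulated counts for genes past the filter in the reticular gate only. That run does not cover the other gates or the fits without the filter. DESeq2 (1.42.0), its size factors in edgeR, no filter on low counts, each library left out, the replicate number as a block, other limits on cells, a wider lead (0.2), whole-profile assignment and subtraction of free RNA were alternatives. Detection was also taken after thinning cells to 3000 UMIs. Intervals are exact at a level of 0.95 and floors rest on 3 counts. Free RNA was estimated from barcodes of fewer than 100 UMIs.

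The 5 genes, the partner list and the marker lists were chosen with earlier results of these data known. Partners were named where called, or where among the 3 highest of their group in a gate; *Dlg1*, the genes called without the filter and those compared between positive and negative cells were named after their values were seen. Protein sequences were not used here. The values of 1 partner gene are not reported here. Replicate numbers did not pair the libraries (correlations of deviations −0.08 to 0.04).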

Additional observations from a re-analysis of the deposited data

Results flagged for a closer look

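*Gria3*, an AMPA receptor subunit gene that lay below the filter on low counts in all gates, was called in opposite directions in different gates. In the edgeR fit without the filter, its log2 fold change was −1.38 in reticular cells (9.20 and 11.1 CPM in Lats2iECKO, 26.1 and 26.8 CPM in controls), 2.27 in metaphyseal stromal cells (10.7 and 24.3 against 1.71 and 5.63 CPM) and 2.29 in ECs (9.33 and 6.78 against 1.51 and 1.91 CPM). That fit called lower 0.467% of all genes in reticular cells, and called higher 2.53% in metaphyseal stromal cells and 3.28% in ECs. The difference between the gates was not tested. No group had enough libraries for a search for single deviating samples.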

How the results depend on the processing

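*Grid1* in reticular cells kept its direction under all 13 alternatives, and its log2 fold change ranged from −5.709 to −3.992 when single libraries were left out. The same ranges were −1.598 to −1.439 for *Nlgn1* in metaphyseal stromal cells, −0.552 to −0.484 for *Negr1* and −0.024 to 0.146 for *Cbln1* in reticular cells, −2.447 to −2.025 for *Nlgn1* in ECs and −1.616 to −1.264 for *Ntm* in mural cells. Whole-profile assignment gave −1.852 for *Nlgn1* in metaphyseal stromal cells. *Negr1* was at −0.607 without the filter on low counts, −0.376 with a wider lead of the gate and −0.41 with whole-profile assignment. *Nlgn1* in osteoblasts ranged from −2.406 to 0.053 when single libraries were left out, and reversed without Lats2iECKO replicate 2. It was called with a wider lead (−1.263) and with whole-profile assignment (−1.713). The cause of these changes was not tested.

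Without the filter, 2 partners were called in reticular, 6 in metaphyseal stromal, 6 in chondrocyte, 3 in mural, 5 in endothelial and 2 in osteoblast cells, since 50 to 56 rather than 7 to 10 could be tested. A wider lead gave 1 call in each of metaphyseal stromal cells (*Magi2*), chondrocytes and ECs (*Grik2*), whole-profile assignment 1 in metaphyseal stromal cells, and 2000 UMIs with 10% mitochondrial counts 1 in ECs. With the replicate number as a block, *Grid1* was at −4.675, *Cbln1* at 0.062, *Negr1* at −0.519 and *Nlgn1* at −1.519, *Nlgn1* in ECs at −2.231 and *Ntm* at −1.426, and partner counts were 1 in mural cells and 0 elsewhere; the numbers did not pair the libraries, and no call changed. With 2 libraries a group, each gene has 2 degrees of freedom of its own, and the fits share the spread across genes. In ECs, mural cells and osteoblasts without the filter, a gene's own spread had almost no weight. Genes under about 10 CPM in the mutants, among them *Grid1*, *Cbln3*, *Nlgn1* in ECs (20 and 26.5 UMIs), *Dcc*, and *Ntm* outside mural cells, are limited by counts.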
